A study of Mus musculus with 2 samples.

Results

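The regions described here belong to 7 genes of the chromosome cycle: Orc2, Mcm3 and Mcm5, which prepare replication origins, Top2a, which untangles DNA, and Plk1, Cdc20 and Cdc23, which act in mitosis. They were found by gene name in a deposited table of 1381 promoter regions of 1296 genes, and each gene had exactly 1 region, so 7 of 1381 regions are covered. The genes were chosen with the table's values known, Orc2 among other reasons for its high level, so the values below are descriptions and no difference is tested. The mark measured was H3K9me3, trimethylated lysine 9 of histone H3, by chromatin immunoprecipitation and sequencing (ChIP-seq) with an anti-H3K9me3 antibody.

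The 2 libraries came from C57BL6 mice. The knockout library was made from mice carrying conditional alleles of Kdm4a, Kdm4b and Kdm4c, which were deleted together after tamoxifen, and the control library from mice labelled WT control, which received tamoxifen as well. From both, bone marrow LSK cells were sorted 2 weeks after the injections. LSK stands for lineage-negative cells that carry Sca-1 and Kit, a fraction rich in blood stem and progenitor cells. The sources used here do not give the Cre line, the age of the animals or the number pooled per library. With 1 library per genotype there is no spread between animals, so the errors printed are counting errors only. Lowest in the table was a knockout to control ratio of 2.01, so only regions with a ratio above 2 were kept in it. The direction of the difference at every region described is therefore a property of the selection and not a finding.

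Before a cell divides, the origin recognition complex marks the places where replication can start, and it loads the MCM helicase, a ring of related subunits that later opens the duplex. Topoisomerase II alpha passes DNA strands through each other, which is needed to separate the copied chromosomes. In mitosis the kinase Plk1 drives spindle assembly and exit, and the anaphase-promoting complex, a ubiquitin ligase activated by Cdc20, marks cyclin B and securin for destruction. H3K9me3 is a mark of heterochromatin, H3K4me3 marks active start sites, and the Kdm4 demethylases remove methyl groups from H3K9.

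Most of these regions lay just upstream of their gene. Positions are on mm10 and are counted from 1, and distances run from the listed start site in the direction of the gene, with negative values upstream. The Orc2 region covered chromosome 1, 58505087 to 58505746, from -637 to 22 bp. It reached across the start site, and 632 of its 660 bp overlapped Gm15834, a long non-coding RNA gene annotated on the opposite strand and beginning 2 bp from the outer end of Orc2 in RefSeq. The Mcm3 region (chromosome 1, 20820221 to 20820729) ran from -516 to -8 bp, but 92 of its bases lay inside the RefSeq gene, which begins further upstream. The Mcm5 region (chromosome 8, 75108808 to 75109332) ran from -700 to -176 bp and touched no annotated gene. These 3 origin gene regions thus lay mostly or wholly upstream.

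The Top2a region was the only one of the 7 lying mostly inside its gene. It covered chromosome 11, 99022352 to 99024692, from -503 to 1837 bp, and with 2341 bp it was the 10th widest of the table, where the median width was 680 bp. The regions of the mitotic genes lay wholly upstream. Plk1 (chromosome 7, 122158998 to 122159344) had the narrowest, 347 bp, running from -436 to -90 bp. The region of Cdc20 (chromosome 4, 118437433 to 118438221) ran from -878 to -90 bp, and that of Cdc23 (chromosome 18, 34651767 to 34652170) from -434 to -31 bp. The annotation used here gives the extent of genes, not their exons.

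**Figure D1:**
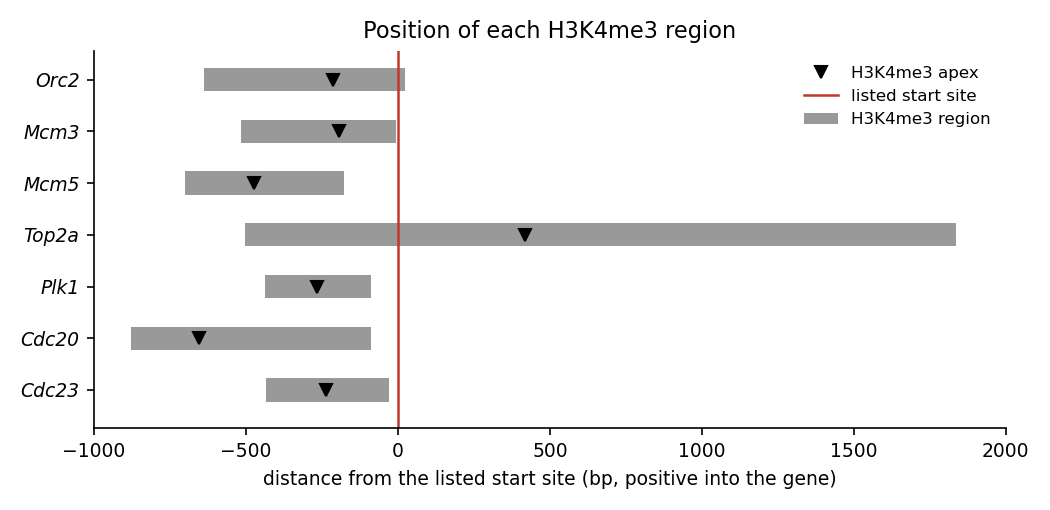
Position of the 7 H3K4me3 regions (grey bars) and of their H3K4me3 apex (triangles) against the listed start site (red line, 0 bp), with positive distances running into the gene. The bars of Orc2 and Top2a cross the start site, the other 5 end upstream of it, and Top2a is the widest at 2341 bp.

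The promoters of 4 of these genes are shown as the 250 bases before the start site (RefSeq, GRCm38.p6, coding strand, 5′ to 3′): Orc2 and Plk1, whose ratio intervals lay above 1, and Top2a and Cdc20, the only ones of the 6 promoters found that hold the CHR letters before the start site. Capitals mark CCAAT on either strand (the box bound by NF-Y), TTTGAA on either strand (the cell cycle genes homology region, CHR, bound by MuvB complexes) and, in Orc2, the longest single-base run.
Orc2 (chr1:58505110-58505359, minus strand): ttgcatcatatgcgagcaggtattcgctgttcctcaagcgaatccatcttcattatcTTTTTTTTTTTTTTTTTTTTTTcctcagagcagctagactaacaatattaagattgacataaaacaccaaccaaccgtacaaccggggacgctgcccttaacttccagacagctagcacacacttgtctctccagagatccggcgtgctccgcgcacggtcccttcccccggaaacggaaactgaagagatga
Plk1 (chr7:122159185-122159434, plus strand): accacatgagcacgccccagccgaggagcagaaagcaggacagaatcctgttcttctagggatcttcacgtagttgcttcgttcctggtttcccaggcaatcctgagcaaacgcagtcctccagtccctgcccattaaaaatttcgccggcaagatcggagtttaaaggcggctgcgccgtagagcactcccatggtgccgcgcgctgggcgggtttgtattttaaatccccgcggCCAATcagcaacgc
Top2a (chr11:99024190-99024439, minus strand): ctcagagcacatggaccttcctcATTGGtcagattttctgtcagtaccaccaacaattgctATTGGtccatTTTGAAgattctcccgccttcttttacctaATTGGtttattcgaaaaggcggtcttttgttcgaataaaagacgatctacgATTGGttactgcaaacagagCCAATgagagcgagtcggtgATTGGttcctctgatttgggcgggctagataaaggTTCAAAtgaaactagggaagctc
Cdc20 (chr4:118437344-118437593, minus strand): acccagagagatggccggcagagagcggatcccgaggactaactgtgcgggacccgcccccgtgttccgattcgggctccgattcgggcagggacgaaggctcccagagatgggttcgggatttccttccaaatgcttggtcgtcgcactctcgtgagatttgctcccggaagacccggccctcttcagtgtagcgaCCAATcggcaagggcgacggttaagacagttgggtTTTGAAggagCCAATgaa

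The H3K4me3 region covered all 250 bases shown of Orc2 and of Top2a, 160 of Plk1 and 161 of Cdc20. The Orc2 stretch held none of the CCAAT, CHR or E2F letters (TTTNNCGC, either strand) and no GC box (GGGCGG, either strand), although an ATTGG, the reverse complement of CCAAT, lay within the first 50 bases after the start site. It held a run of 22 T. Runs of 20 or more of 1 base occurred in 0.688% of the 32851 promoters of the RefSeq table, and in 1.31% of the 1145 promoters of genes with a listed region. The sources used here do not say how reads that map to several places were treated, and the part of that run in the reads counted at Orc2 was not tested.

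Top2a held 6 CCAAT boxes, where 5 or more occurred in 0.213% of all promoters and in 0.786% of those of genes with a listed region. It also held 2 CHR matches, the nearer starting 23 bp before the start site. Cdc20 held 2 CCAAT boxes and a CHR beginning 18 bp upstream, and Plk1 held a CCAAT box 14 bp upstream, with TTTGAA only after the start site. Mcm3 held 3 CCAAT boxes and Mcm5 held 2, together with 2 E2F matches that overlap each other, from 153 to 142 bp upstream. Within the first 50 bases after the start site, Mcm3 had 2 E2F matches and Mcm5 a further CCAAT. At least 1 CCAAT occurred in 5 of the 6 promoters found in the table (all but Orc2), against 33.8% of all promoters and 37.8% of those of genes with a listed region. A CHR occurred in 16% and 10.7% of these promoters, an E2F match in 4.28% and 7.6%, and a GC box in 32.7% and 59.4%. Like Orc2, Mcm5 held no GC box, while Mcm3, Top2a, Plk1 and Cdc20 held 1 each. These are matches of letters and not measured binding sites.

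Per region, the H3K9me3 level was highest at Orc2, lower at Plk1 and Cdc23, near the table's middle in the knockout at Mcm3 and Cdc20, and at the smallest listed values at Mcm5 and Top2a. Values are reads scaled to library size (RPM), and 1 read was worth 0.0384 RPM in the knockout and 0.0405 RPM in the control library, whose scaling totals were 26061344 and 24673463 reads. The intervals of levels are exact Poisson intervals (95%), and those of ratios are exact binomial ones (Clopper-Pearson, 95%).

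Orc2, a subunit of the origin recognition complex, had 2.84 RPM in the knockout (74 reads, 2.23 to 3.56) and 1.30 RPM in the control library (32 reads, 0.887 to 1.83). The intervals of the libraries did not overlap, and the ratio was 2.19 (1.43 to 3.43). Its control level was the highest of the table, ahead of 6820431F20Rik at 0.932 RPM, and its knockout level was second to that of Atf7ip at 2.95 RPM. The table's median was 0.230 RPM in the knockout and 0.0811 RPM in the control, so Orc2 stood 12.3 times higher than it in the knockout and 16.0 times higher in the control. This high level, in control as in knockout cells, was among the reasons for choosing the gene. Its ratio ranked 1319th of 1381. The control level is the denominator of the ratio, and its part in the low ratio at Orc2 was not tested. The 2 regions with 13 control reads had ratios of 2.11 and 5.61, and the 2 with 15 had 2.84 and 3.35. The 2 regions with 22 control reads had 2.07 and 2.37, and the region with 23 had 2.51. The highest ratio of the table, 30.3, was at 1 control read.

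The helicase genes Mcm3 and Mcm5 had far fewer reads. Mcm3 had 0.269 RPM in the knockout (7 reads, 0.108 to 0.553) and 0.122 RPM in the control (3 reads, 0.0251 to 0.355), a ratio of 2.21 (0.50 to 13.2). Mcm5 had 0.115 RPM in the knockout (3 reads, 0.0237 to 0.336) and 0.0405 RPM in the control (1 read, 0.00103 to 0.226), a ratio of 2.84 (0.23 to 149). At both genes the intervals of the libraries overlapped, and an equal level in both lay within the interval of the ratio. Top2a had the same read numbers as Mcm5, 3 in the knockout and 1 in the control, and the same ratio of 2.84, over 2341 bp where the Mcm5 region spans 525 bp. The same read numbers were found at 249 regions of the table, and those of Mcm3 at 53.

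Among the mitotic genes Plk1 had the most reads. It had 0.883 RPM in the knockout (23 reads, 0.559 to 1.32) and 0.203 RPM in the control (5 reads, 0.0658 to 0.473), a ratio of 4.36 (1.62 to 14.7). As at Orc2, the intervals of the libraries did not overlap. Cdc20, the activator of the anaphase-promoting complex, had 0.269 RPM in the knockout (7 reads, 0.108 to 0.553) and 0.0405 RPM in the control (1 read, 0.00103 to 0.226). Its ratio of 6.63 (0.85 to 299) was the highest of the 7 and rested on that single control read. Cdc23, a core subunit of the same complex, had 0.499 RPM in the knockout (13 reads, 0.266 to 0.853) and 0.243 RPM in the control (6 reads, 0.0892 to 0.529), a ratio of 2.05 (0.73 to 6.58). For Cdc20 and Cdc23 the intervals overlapped between libraries.

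**Figure D2:**
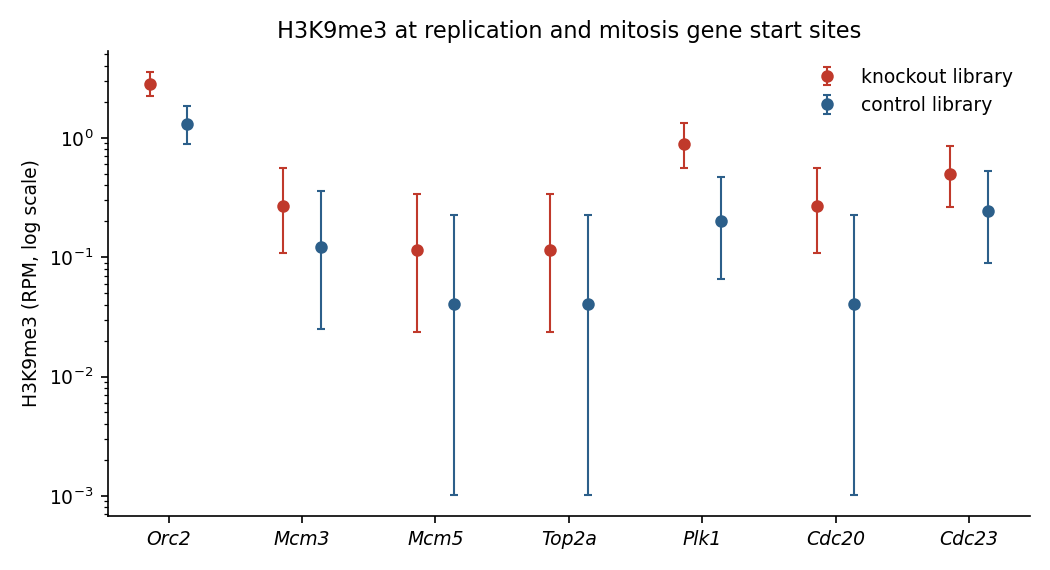
H3K9me3 in RPM (log scale) at the region of each gene in the knockout (red) and control library (blue), with exact 95% Poisson intervals that cover counting error only. Orc2 had 2.84 RPM in the knockout and 1.30 RPM in the control, and at Orc2 and Plk1 the intervals of the libraries do not overlap.

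Dividing by the width of the region kept Orc2 on top of the 7 genes but brought Plk1 closer. In the knockout library Orc2 had 4.30 RPM per kb (3.38 to 5.40) and Plk1 2.54 RPM per kb (1.61 to 3.82), and these intervals overlapped. Cdc23 followed with 1.23 RPM per kb (0.657 to 2.11), which overlapped the interval of Plk1. Mcm3, Cdc20 and Mcm5 had 0.528, 0.340 and 0.219 RPM per kb, with overlapping intervals, and Top2a was lowest with 0.0492 RPM per kb (0.0101 to 0.144). The interval of Top2a overlapped those of Mcm5 (0.0452 to 0.641) and Cdc20 (0.137 to 0.701), but not that of Mcm3 (0.212 to 1.09). By knockout RPM per kb Orc2 ranked 3rd, Plk1 22nd, Cdc23 129th and Top2a 1379th of 1381. By control RPM per kb Orc2 ranked 2nd. In the control library Orc2 had 1.97 RPM per kb (1.34 to 2.77), followed by Cdc23 with 0.602 (0.221 to 1.31) and Plk1 with 0.584 (0.190 to 1.36), and the intervals of Orc2 and Plk1 just overlapped. The sources used here do not give the window in which reads were counted. Across all 1381 regions the width had a Spearman's rho of -0.04 with the reads of both libraries together, so wider regions did not hold more reads, and levels per kb depend on that unknown window.

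How far each ratio could fall is limited by whole reads. A region with 1 control read needs 3 knockout reads to pass a ratio of 2, one with 3 control reads needs 7 and one with 6 needs 13. Mcm3, Mcm5, Top2a and Cdc23 held exactly this fewest number, as did 465 regions of the table (33.7%). Their ratios are thus the lowest they could have had while being listed. Orc2 had 74 knockout reads where 68 were needed, Plk1 had 23 where 11 were needed, and Cdc20 had 7 where 3 were needed.

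A ratio of at least 3, the fold used here to count regions, was reached by 2 of the 7 genes (Plk1 and Cdc20), against 50.0% of all listed regions. The interval of the ratio lay above 1 for 2 of them (Orc2 and Plk1), against 21.1% of all listed regions. Neither count is a result about these genes, since the table was selected on the same ratio. A region with more reads reaches such an interval more easily: among the 578 regions with at least 10 reads in both libraries together, it lay above 1 in 46.5%. With 99% intervals the same 2 genes lay above 1, against 10.4% of all listed regions. A ratio of at least 3 was found in 54.0% of the regions with at least 10 reads, Plk1 among them, and in 53.3% of the regions at or above the median H3K4me3 height, Cdc20 among them.

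**Figure D3:**
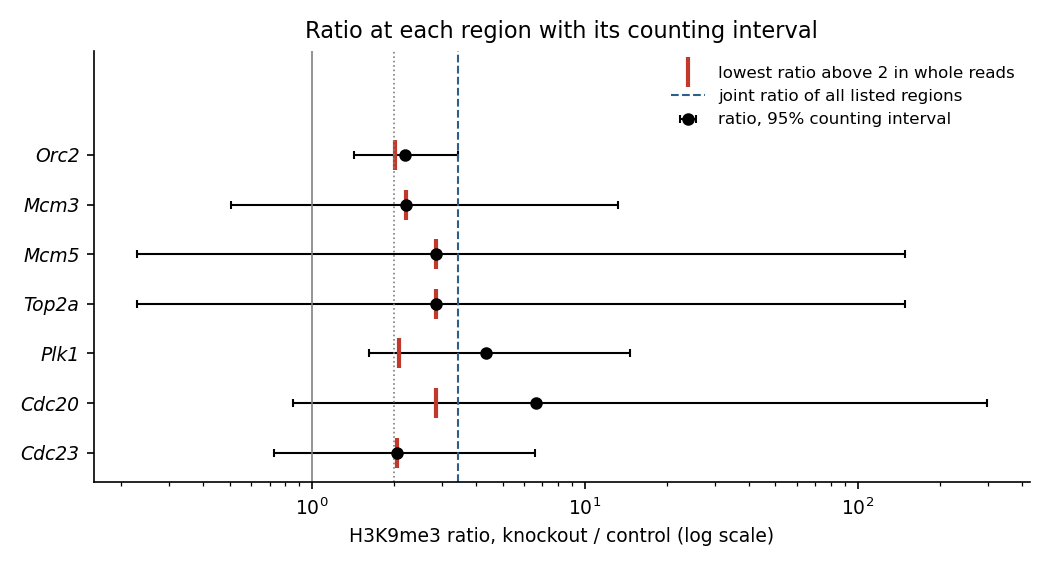
Knockout to control ratio of H3K9me3 (log scale) at each gene with its exact 95% binomial interval (black), the lowest ratio above 2 that whole reads allow (red ticks), and the joint ratio of all listed regions, 3.43 (dashed line). Grey lines mark a ratio of 1 (solid) and of 2 (dotted). Mcm3, Mcm5, Top2a and Cdc23 sit on their red tick.

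Summed over the 7 genes, 130 knockout reads stood against 49 control reads, a joint ratio of 2.51 (1.80 to 3.56). Orc2 supplied 56.9% of these knockout and 65.3% of these control reads. Without it the sums were 56 and 17 reads and the joint ratio 3.12 (1.79 to 5.73). The median ratio of the 7 genes was 2.84, beside 2.998 over all listed regions, and the joint ratio of the whole table was 3.43 (3.31 to 3.57). By role, Orc2, Mcm3 and Mcm5 together had 84 knockout and 36 control reads, a joint ratio of 2.21 (1.48 to 3.36). Plk1, Cdc20 and Cdc23 had 43 and 12 reads, a joint ratio of 3.39 (1.76 to 7.07). These intervals overlap.

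**Figure D4:**
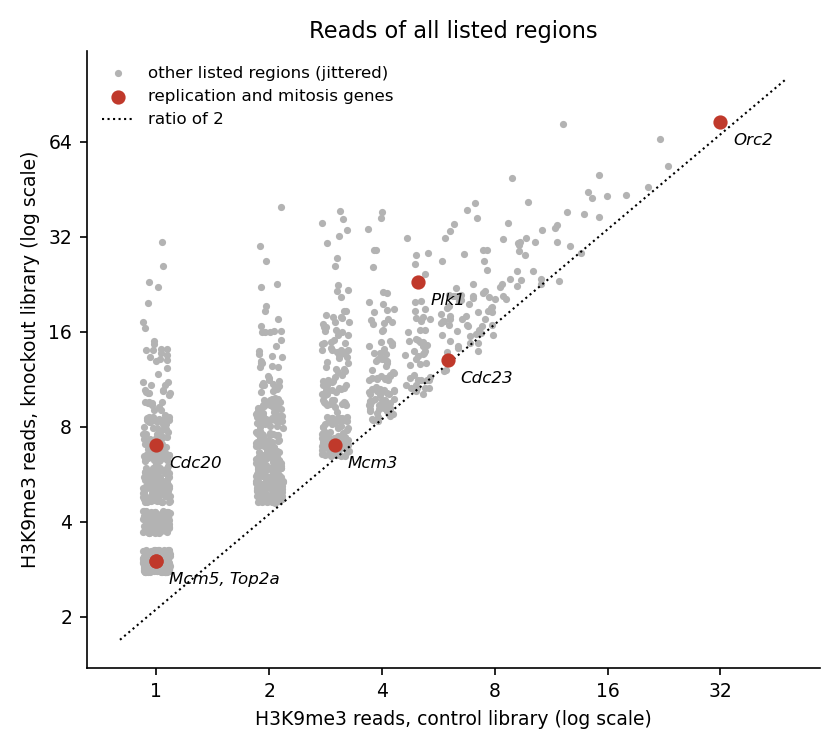
H3K9me3 reads of the knockout library (vertical) against those of the control library (horizontal), both on log scales, for the 7 genes (red) and the other listed regions (grey, slightly jittered so that equal counts can be seen, which moves some below the dotted line at a ratio of 2). Orc2 lies at the far right with 32 control reads and close to the dotted line.

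H3K4me3, the mark by which the regions had been called, gave a different order. The authors' height of the Orc2 region was 30.5 RPKM, the 23rd highest of the table, and that of Top2a was 14.5 RPKM, the 367th. Cdc20 had 12.0 RPKM, and these 3 genes lay above the table's median of 11.0 RPKM. Mcm5 (9.32 RPKM), Cdc23 (8.54 RPKM), Mcm3 (6.78 RPKM) and Plk1 (6.63 RPKM) lay below it. Plk1, at rank 1374 of 1381, was among the lowest regions listed. Orc2 and Plk1, the genes with a ratio interval above 1, therefore lay near opposite ends by H3K4me3. Over all 1381 regions, which share the same pair of libraries, the height had a Spearman's rho of -0.05 with the summed H3K9me3 reads.

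Around these genes, 10 lists of replication and mitosis genes with 241 members, drawn up with earlier results of these data known, had 29 genes with a listed region (12.0%), a share that includes the 7 genes chosen from the table. Without these it was 22 of 234 (9.40%). Among all 21900 protein-coding genes of RefSeq the share was 5.46%, and it includes genes with no H3K4me3 region. No level can be read from a gene's absence, which may come from a ratio not above 2, from no control read or from no such region. The 29 genes held 290 knockout and 90 control reads, a joint ratio of 3.05 (2.40 to 3.91), and 3.69 (2.61 to 5.34) without the 7 described above. Their median ratio was 3.31, beside 2.998 over all listed regions. The interval lay above 1 for 5 of the 29, a share of 17.2% beside 21.1% of all listed regions: Orc2, Plk1, Mcmbp, Pole4 and Mis18a.

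Among origin licensing genes, 5 of 18 were listed, a count that includes Orc2, Mcm3 and Mcm5, which were chosen from the table. The others were Mcmbp, whose product binds MCM subunits, and Orc6, another subunit of the origin recognition complex. Mcmbp had 0.460 RPM in the knockout (12 reads) and 0.0811 RPM in the control (2 reads), a ratio of 5.68 (1.26 to 52.3). Orc6 had 3 and 1 reads, like Mcm5. Of 41 genes of the replication fork, Pole4, Pole2, Rpa2 and Gins1 were listed. Pole4, a small subunit of DNA polymerase epsilon, had 0.460 RPM in the knockout (12 reads) and 0.0405 RPM in the control (1 read), a ratio of 11.4 (1.68 to 486), the highest of the 29. Rpa2, of the single-strand binding protein RPA, had 7 knockout reads and 2 control reads. Rrm2, a subunit of ribonucleotide reductase, was the only listed gene of 10 for deoxynucleotide supply. Of 6 genes on the topoisomerase list, Top2a and Topbp1 were listed, and Topbp1 encodes a binding partner acting in checkpoint signalling.

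Of 24 mitotic kinase and checkpoint genes, 4 were listed. Besides Plk1 these were Incenp, a scaffold of the chromosomal passenger complex, and Bub3, a spindle checkpoint protein, each with 10 knockout and 3 control reads, and Mastl, the Greatwall kinase, with 7 and 1. Of 19 genes of the anaphase-promoting complex and its partners, Anapc4 and Ube2s were listed beside Cdc20 and Cdc23. Anapc4, a subunit, had 9 knockout and 4 control reads, a ratio of 2.13 (0.59 to 9.47), and the ubiquitin-conjugating enzyme gene Ube2s had 6 and 2. No interval of these 4 lay above 1, beside 21.1% over all listed regions, and 4 genes are too few to tell these apart. Their joint ratio was 2.55 (1.32 to 5.25) and their median ratio 2.49. The 4 mitotic kinase and checkpoint genes had a joint ratio of 3.94 (2.07 to 8.14) and a median of 3.76. The intervals of the 2 joint ratios overlap.

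Of 35 centromere and kinetochore genes, 5 were listed, with a median ratio of 3.79. The interval lay above 1 for Mis18a, whose product helps load the centromeric histone CENP-A. Mis18a had 0.767 RPM in the knockout (20 reads) and 0.162 RPM in the control (4 reads), a ratio of 4.73 (1.59 to 19.0). The other listed genes, Cenpe, Cenpm, Cenpu and Mis12, had 9 or fewer knockout reads each. Of 45 genes on a list of cyclins, CDKs, inhibitors and related genes, Ccnh and E2f3 were listed. Of 25 condensin and cohesin genes Esco2 was listed, and of 18 replication stress genes Atrip. None of these 4 had an interval above 1, beside 21.1% over all listed regions, again too few genes to tell apart.

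**Figure D5:**
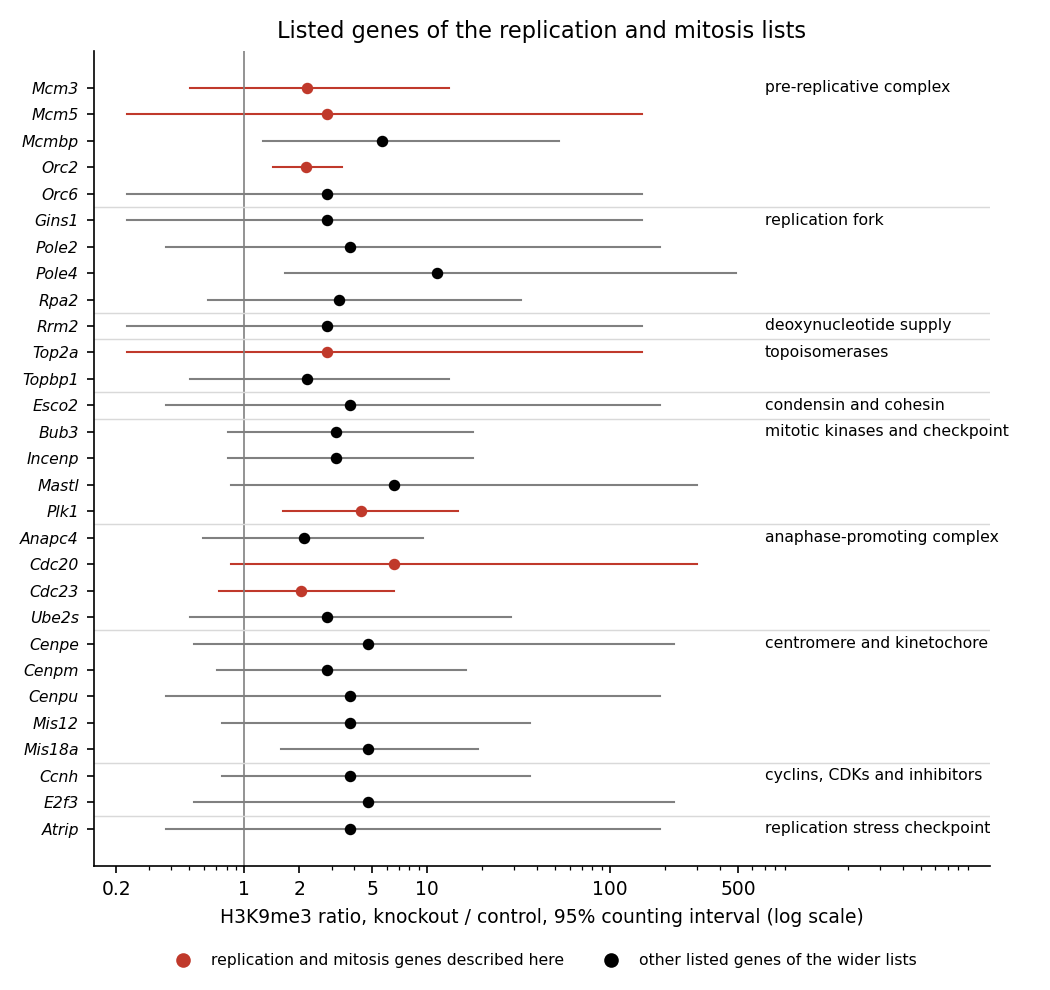
Knockout to control ratio of H3K9me3 (log scale) with exact 95% binomial intervals for the 29 listed genes of the 10 lists, the 7 genes described first in red and the other 22 in black. The vertical line marks a ratio of 1. The interval lies to its right for Mcmbp, Orc2, Pole4, Plk1 and Mis18a.

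The table offers no check of the labels. A region was listed for Ly6a, the gene of Sca-1 (4 knockout reads, 1 control read), while Kit, Cd34, Flt3, Slamf1 and Cd48 had none, and neither did 12 lineage marker genes or the deleted genes Kdm4a, Kdm4b and Kdm4c. A missing region says nothing of expression or of the deletion. No input library (chromatin without immunoprecipitation) was analysed here, so whether these read numbers lie above background is not known.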

How the data were processed

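H3K9me3 ChIP-seq values of 1 knockout and 1 control library were analysed. Per the submitters' processing notes, Trimmomatic, Bowtie2 and mm10 were used. The sources used here do not say what called the regions, which window was counted or how duplicates were treated. The authors deposited 1 value per region and library, read here as RPM: all values (100.0% in each library, within 0.01 reads) were whole multiples of 1 step, which gave the reads and library totals. The ratio deposited by the authors equalled that of both columns. The authors deposited the H3K4me3 height as RPKM, used only to describe and rank regions. It was read as a pooled value of each region, so it belongs to neither genotype alone. Another 11 columns of per-region values were left out.

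Exact binomial and Poisson intervals were computed with scipy 1.17.1 (Python 3.11.15). Only the binomial intervals were tested on simulated data, which were drawn without a selection by ratio. Both kinds of interval cover counting error only, because there is 1 library per genotype, and they ignore the selection by ratio. Reads lack molecular identifiers and need not be independent molecules, and where they are not, the intervals are too narrow. Without replicates no test between conditions was made. Every listed region of the 7 genes was named, as was every listed gene of the wider lists, with values for those whose interval lay above 1 and for some others chosen after their values were seen. The genes and lists were chosen with earlier results of these data known. Symbols and promoters came from RefSeq (GRCm38.p6), where 6 of the 7 genes had a promoter (not Cdc23) and all 241 list genes matched. Some items are not reported here. Alternatives were other pseudocounts, scalings, intervals, folds and filters.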

Additional observations from a re-analysis of the deposited data

How the results depend on the processing

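No paired analysis was possible because there is 1 library per genotype, and for the same reason no library could be left out. Giving the libraries equal sums over the listed regions shifts every log2 ratio by -1.78, as a table holding only ratios above 2 forces. It brought the joint ratio of the 7 genes, 2.51, to 0.732 and the log2 ratio of Orc2, 1.13, to -0.65, with Plk1 (0.34) and Cdc20 (0.95) above 0 and the other 5 genes below. Other alternatives left the joint ratio between 2.41 (regions with at least 10 reads) and 3.12 (without Orc2). The 2 genes with a ratio of at least 3 became 1 (Plk1) with at least 10 reads and 1 (Cdc20) at or above the median H3K4me3 height. The 2 genes with an interval above 1 became 1 (Orc2) of the 3 genes at or above that height. Of the 691 listed regions at or above it, 21.1% had such an interval. With 99% intervals the count stayed 2, against 10.4% of all listed regions. With pseudocounts worth 1 and 5 control reads, the log2 ratios of all 7 genes stayed inside their counting intervals, which are wide and show little about stability. The joint ratio per kb of width (2.61) and that of the wider lists without Orc2 (3.53) were alternatives chosen after seeing the data. Depth limits single values: Mcm5, Top2a and Cdc20 rest on 1 control read each.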

Other observations

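Listed regions near these genes, within 500 kb between region centres (a distance chosen after the values were seen), had 3 to 11 knockout reads and 1 to 4 control reads, beside table medians of 6 knockout and 2 control reads. Orc2 had 3 such neighbours on chromosome 1, Ppil3, Bzw1 and Gm20257, with 4, 7 and 11 knockout reads and 1, 1 and 4 control reads, far below its own 74 and 32. The closest of them, Ppil3, lay 59.9 kb away. Cdc23 had 6 neighbouring regions of 5 genes. The nearest belonged to Kif20a, which encodes a mitotic kinesin and was outside the lists used above, with 5 knockout reads and 1 control read at 27.4 kb, a ratio of 4.73 (0.53 to 224). The other regions near Cdc23 had 3 to 11 knockout reads and 1 to 3 control reads. Plk1 had Dctn5, a dynactin subunit gene, at 25.6 kb (5 knockout reads, 1 control read) and Ubfd1 at 92.6 kb (4 and 1). Cdc20 had Ebna1bp2, a nucleolar ribosome assembly gene, at 183.6 kb, with 8 knockout reads and 1 control read, a ratio of 7.57 (1.02 to 336), beside 6.63 (0.85 to 299) at Cdc20 itself. Top2a had Thra, with 3 knockout reads and 1 control read, and Mcm5 had no listed neighbour. None of the neighbours named here held as many as 5 control reads. Regions missing from the table could not be compared.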
